A study of Danio rerio with 6 samples.

Results

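The transcriptome of zebrafish embryos at the 6-somite stage was read from the 3 control arrays of an Affymetrix experiment on whole embryos of the AB strain, collected 12 h after fertilisation. These are the arrays whose titles name them as control, numbered 1 to 3, out of 6 arrays in the series. The remaining 3 arrays hold Ovo1 morphants of the same strain and age, which are embryos injected with an antisense morpholino against the zinc finger gene Ovo1 and labelled as carrying the sox10(7.2):gfp transgene. The design text places that transgene in control embryos too, while the sample descriptions call the controls wild type; whether they received a control injection is not stated in the sources used here. Each array holds total RNA of whole embryos, and the labels do not say how many embryos were pooled or whether the 3 samples came from separate clutches. The spread between arrays may therefore be technical.

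At this stage gastrulation is over and the body axis is being laid down. Presomitic mesoderm of the tailbud is cut into somites, the notochord runs along the midline beneath the neural plate, the brain is being divided into regions, and neural crest cells are specified at the edge of the neural plate. A simple epidermis with an outer periderm covers the embryo, and the yolk syncytial layer, a multinucleate layer around the yolk, exports lipoproteins and other secreted proteins. Most organs that later carry out digestion, vision or circulation have no differentiated cells yet.

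Each probe set has 1 deposited intensity per array. The 15502 probe sets other than Affymetrix controls were ranked by the mean of log2(intensity + 16) over the 3 arrays, and a percentile below always means the place in that ranking. The mean intensity was 37.2 at the 25th percentile, 145 at the 50th, 504 at the 75th and 7057 at the 99th. Array medians were 143.8, 132.7 and 154.1 in controls 1, 2 and 3, and Pearson's r between pairs of arrays, across probe sets, lay between 0.989 and 0.993. Probe sets differ in how strongly they bind their targets, so a rank describes signal and is no measure of molecules. The size of that error can be read from the 1539 genes with several probe sets. Their brightest and dimmest probe sets lay a median of 1.09 apart on the log2 scale, or 14.8 percentile points, and in 24.95% of these genes the gap was over 2. With the dimmest probe set in place of the brightest, 54 of the 272 genes picked for description moved by more than the spread of their percentile over the 3 arrays, by up to 85.7 points. The 272 include genes with only 1 probe set, which cannot move under this swap. The share among genes with several probe sets is therefore higher. A gene is given below by its brightest probe set, although 7254 of the 8793 named genes have only 1. Named genes sit high among all probe sets. Of them 14.2% lie above the 90th percentile, 33% above the 75th percentile and 18.4% at or below the 25th. Counts of a gene list are to be read against these shares. The lists and their members were chosen with earlier results of these data known, so the counts are a description and no independent support. In RNA of whole embryos, few cells with much of a transcript and many cells with little of it cannot be told apart.

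The strongest signals came from the translation machinery. The brightest named gene was eef1a1l1, an elongation factor that brings tRNA to the ribosome, at 16158, 15785 and 16489 in controls 1, 2 and 3. It was followed by the mitochondrially encoded oxidase subunit COX1 at 15674, 14651 and 15244 and the ribosomal proteins rps2, at 15096, 14547 and 15825, and rplp0, at 14414, 14728 and 14782. The 3 arrays differed little in these values. Of the 25 highest named genes, 18 encode ribosomal proteins and 3 are in the list of translation factors, namely eef1a1l1, the elongation factor eef2b and the ribosome-bound scaffold rack1. The other 4 were COX1, the keratins krt8 and krt4, and hspa8, the constitutive Hsp70 chaperone, at 12109.7, 12460.4 and 12347. Intensities at this end lie close together, with a mean of 16144 for the first gene and 12306 for the 25th. The brightest 1% of probe sets held 19.0% to 19.3% of the summed intensity of each array.

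Outside the lists of general cell machinery, the 15 highest genes were of several kinds, and RNA of whole embryos does not show which cells they came from. Among them stood 3 keratins, krt8 at 13143, 12667 and 13046, krt4 at 12439, 11866 and 12886 and krt18a.1 at 9823, 9781 and 10083, which build the intermediate filaments of surface epithelia. The nuclear transport GTPase ran read 11699, 11806 and 12027. The list also held bhmt, which remakes methionine from betaine, at 10943, 11905 and 11921, the cold-inducible RNA-binding protein cirbpb at 11897, 11549.8 and 11276, and the polyubiquitin gene ubb at 11367, 11542 and 11158. The chromatin protein hmga1a read 11642, 11289 and 10731, although the dimmest of its 4 probe sets lay at the 65.4th percentile. The antifreeze-like protein gene afp4, which is also in the list of the yolk syncytial layer, read 11320.01, 11408 and 11742. The ferritin genes fth1a at 10415, 10959.6 and 9985 and fthl27 at 9524, 10273 and 9717 encode iron storage proteins. COX1 and 3 genes known only by clone names, zgc:171772, zgc:114188 and si:ch211-222l21.1, made up the rest. COX1 stands here only because its symbol, written in capitals, was not matched by the list of mitochondrially encoded genes.

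**Figure D1:**
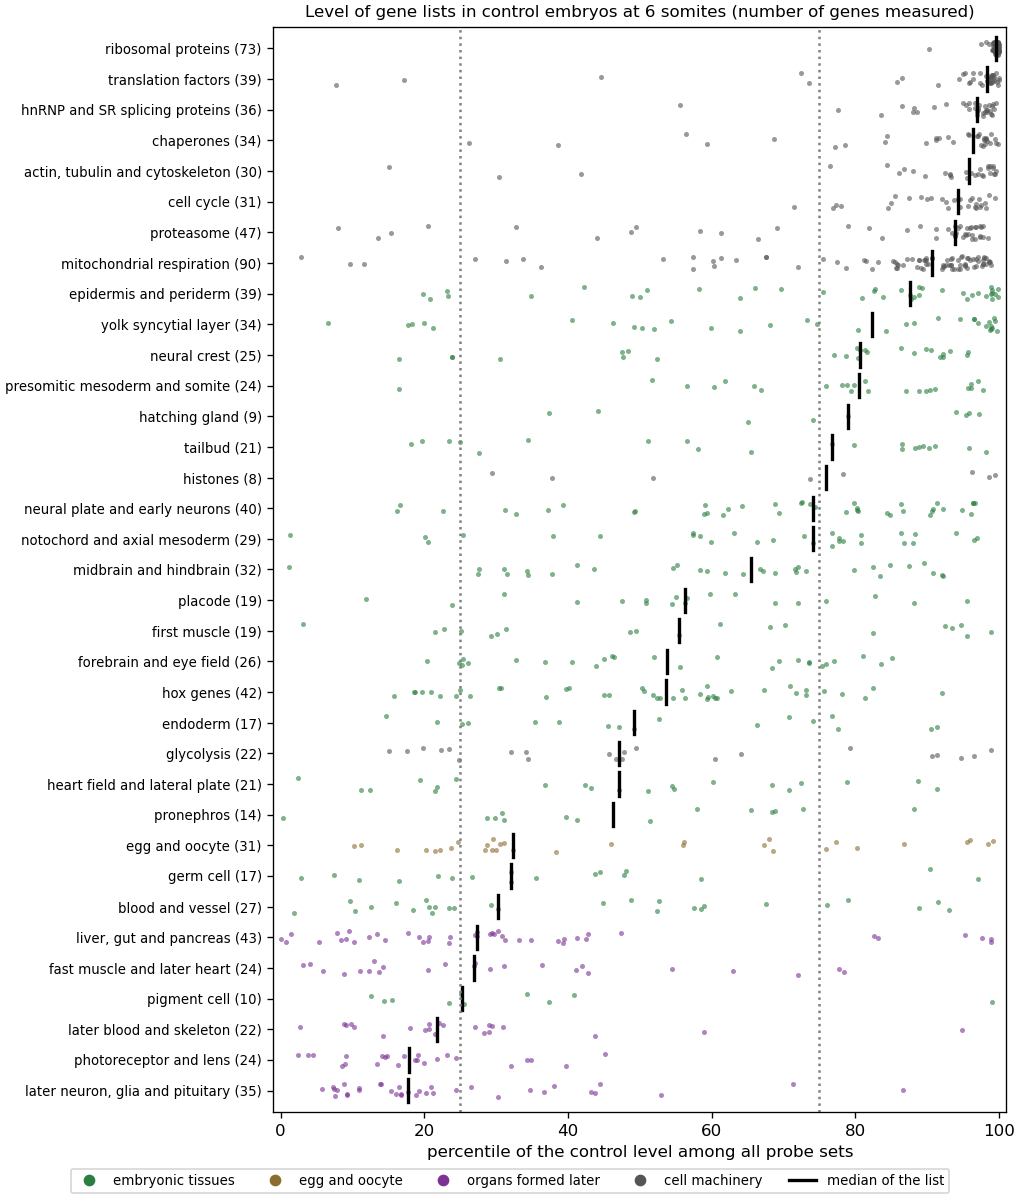
Percentile of every measured member of each gene list among all ranked probe sets, ordered by mean log2(intensity + 16) over the 3 control arrays; each point is a gene, the black bar is the list median, and dotted lines mark the 25th and 75th percentiles. Most lists of cell machinery lie at the right, with glycolysis an exception at a median of 47.1, embryonic tissue lists range from epidermis at 87.6 to pigment cell at 25.3, and the 5 lists of organs formed later have medians between 17.8 and 27.4 with a few members far to the right.

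All 73 ribosomal protein genes lay above the 90th percentile, with a list median at percentile 99.6. The lowest, rps27l, a divergent paralogue, read 1339, 1221 and 1336. Translation factors had 32 of 39 members above the 90th percentile, where 14.2% of named genes lie, and hnRNP and SR splicing proteins 29 of 36. The highest splicing gene was khdrbs1a, an RNA-binding signalling protein, at 11015, 10565 and 10016. Chaperones had 24 of 34 members there, among them hsp90ab1, the constitutive Hsp90, at 9549, 9386 and 10089 (dimmest probe set at percentile 13.7), and the proteasome list 30 of 47. Of the actin, tubulin and cytoskeleton list, 21 of 30 lay above the 90th percentile, led by the alpha-tubulin tuba8l4 at 10761, 10889.5 and 10524. Mitochondrial respiration had 47 of 90 there.

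Genes of the cell cycle were bright as a list, with 30 of 31 above the 75th percentile against 33% of named genes. The replication clamp pcna read 9431, 9575 and 9559.97. The helicase subunits mcm7 and mcm2 read 5047, 5630.5 and 5321 and 4387, 4555 and 4821, and the G1 cyclin ccnd1 read 4702, 3855 and 4355. The exception was top2a, a topoisomerase of dividing cells, at 441, 421 and 398 and percentile 71.4. Its 5 probe sets reached down to percentile 26.3.

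Glycolysis differed from the other lists of cell machinery, with a median at percentile 47.1. Of its 22 members 6 lay above the 75th percentile, where 33% of named genes lie, and 6 at or below the 25th, where 18.4% lie. The list holds paralogues that lay far apart, such as tpi1b at percentile 90.6 and tpi1a at 17.6. Its median therefore depends on which paralogues were listed. The aldolase aldoaa read 6242, 6315 and 6387, gapdh 2456, 3016 and 3389 and the lactate dehydrogenase ldhba 1940.4, 2121 and 2227. At the other end the muscle phosphofructokinase pfkma read 19.6, 19.8 and 20.8. Among 8 histone genes the variant h2az2b, which replaces H2A, was highest at 9804, 10191 and 10130.2 and the oocyte linker histone h1m lowest at 44.3, 52.4 and 45.1.

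Neural crest genes were bright, with 17 of 25 measured genes above the 75th percentile and a median at percentile 80.6. By the dimmest probe set of each gene the count was 11. The 33% of named genes is by the brightest probe set and is no measure for that count. The share by the dimmest is not given here. The factor tfap2a, which is needed for crest induction and also marks epidermis, read 2432, 2298 and 2304 in controls 1, 2 and 3. The crest specifiers sox9b and foxd3 read 1465, 1501 and 1669.6 and 1259, 1466 and 1280.00, at percentiles 92.2 and 90.6. The later crest factor sox10 read 623, 622 and 738, with control 3 highest and controls 1 and 2 nearly equal. The crest transcript crestin read 749, 427 and 908, and control 2 lay clearly below the other two. The list also holds genes with wide expression. Its brightest member was mycn, a growth regulator, at 2315, 2445 and 2613, followed by tfap2a and by crabp2a, a retinoic acid binding protein, at 1708, 1738 and 1679.

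Some other crest genes were dim. The epithelial-mesenchymal transition factor snai1b read 36.6, 48.3 and 70.1, at percentile 30.5. Control probe sets for synthetic tags, described below, reach that level, so no order among the arrays is read from snai1b. Its family members snai1a and snai2 were not dim, at percentiles 89.8 and 81.3. The border factor pax3a read 36.8, 13.8 and 19.1, at percentile 16.4. Genes of pigment cells, which the crest forms later, were mostly low: 4 of 10 lay at or below the 25th percentile, and only paics lay above the 75th, at 6828, 7706 and 7837. It encodes a purine synthesis enzyme that all dividing cells use. The melanocyte regulator mitfa read 18.1, 20.8 and 23.04, the melanin enzyme dct 36.96, 41.9 and 32.6 and the yellow pigment cell receptor csf1ra 19.6, 17.3 and 13.9.

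**Figure D2:**
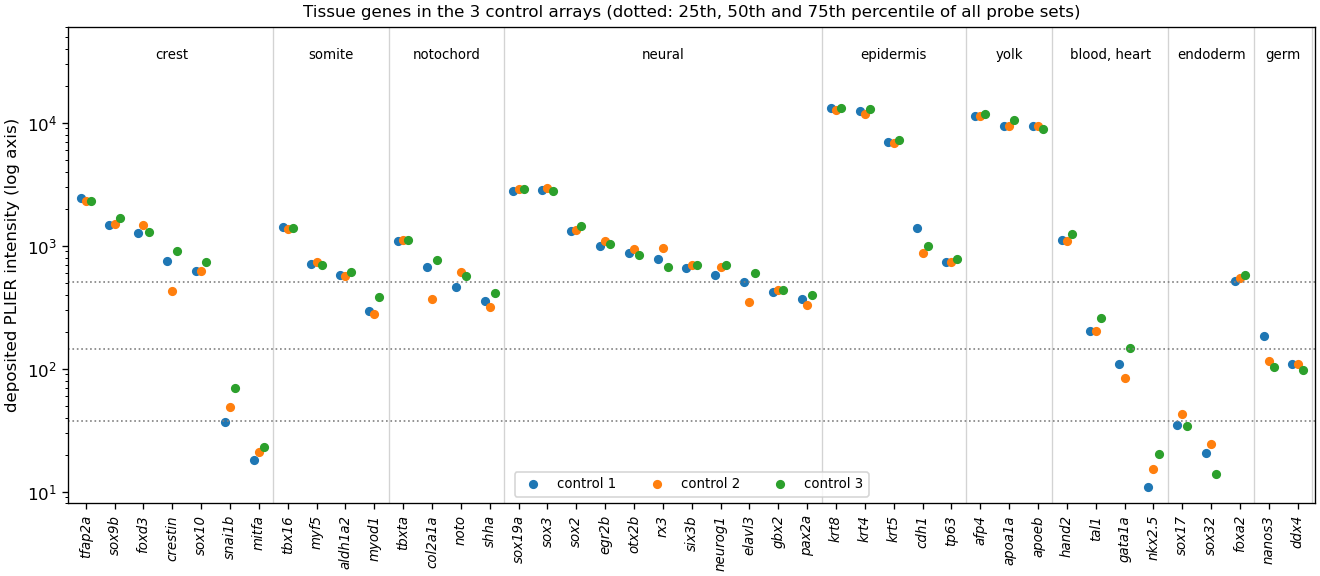
Deposited intensity of tissue genes (log axis) on control arrays 1, 2 and 3, 1 point per array, with dotted lines at the mean intensity of the 25th, 50th and 75th percentiles of all probe sets (37.2, 144.7 and 503.6). The keratins krt8 and krt4 and the yolk genes apoa1a and apoeb lie far above the highest line while mitfa, nkx2.5 and sox32 lie under the lowest line, and within a gene the 3 points mostly overlap, with crestin and col2a1a low on control 2.

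Presomitic and somite genes were bright as well, with 17 of 24 above the 75th percentile. The highest was msgn1, a factor of presomitic mesoderm, at 4046, 4159 and 4090.5. It was followed by N-cadherin, cdh2, which somites and neural tissue share, at 4181, 2741 and 3183. The Notch feedback gene nrarpa and the clock partner hes6 read 2784, 2547 and 2622 and 2577, 2677 and 2566. The T-box factor tbx16 read 1413, 1372 and 1379. Of the muscle determination factors, myf5 read 706, 733 and 696 and myod1 293, 278 and 382, at percentiles 81.7 and 65.9. The retinoic acid enzyme aldh1a2 read 574, 571 and 613.

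Genes of the first muscle fibres ranged more widely, from percentile 3.13 to 98.9, with 6 of 19 above the 75th. The sarcomeric actins actc1a, acta1a and actc1b read 6213, 6392 and 7167, then 2085, 2079 and 2942, and then 1437, 1475 and 2541. In all 3 control 3 was highest. Of the 4 probe sets of actc1b the dimmest lay at percentile 21.2. Actin genes are alike in sequence, and signal of acta1a and actc1b may include each other's transcripts. The myosin chaperone hsp90aa1.1 read 1921, 1932 and 2523, the intermediate filament gene desma 174, 153 and 249, and the fast myosin light chain myl1 only 5.89, 2.09 and 10.5.

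Axial genes lay somewhat lower, with 14 of 29 above the 75th percentile and a median at 74.04. Among the highest members, copa at 3188, 3095 and 3256 and copb1 at 1834, 1781 and 2034, are vesicle coat genes that the notochord needs but all cells use, and the laminin lamb1a read 3567, 2464 and 2774. The T-box factor tbxta, which marks notochord and tailbud, read 1097, 1103 and 1103, nearly equal on the 3 arrays. The homeobox gene noto read 463, 614 and 566, the forkhead factor foxa3 455, 496 and 489 and the hedgehog ligand shha 355, 318 and 411. The sheath collagen col2a1a read 675, 367 and 762, with control 2 below the others. The connective tissue growth factor gene ccn2b read 4.08, 1.89 and 5.13, at percentile 1.37.

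In the tailbud list 11 of 21 genes lay above the 75th percentile. The caudal factor cdx4, which sets posterior identity, was highest at 4619, 4531 and 4271, followed by the ventral homeobox gene vox at 2426, 2661 and 2299. The Bmp pseudoreceptor bambia read 1345, 1275 and 1262 and the Wnt-responsive factor sp5a 517, 559 and 559. The ligand fgf4 was lowest at 23.6, 18.9 and 32.2. Of 42 hox genes, 5 lay above the 75th percentile and 8 at or below the 25th. The highest was hoxc8a at 1576, 1483 and 1493, with its dimmest probe set at percentile 31.5, and the lowest hoxc13a at 21.6, 21.4 and 20.2.

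The neural list had 19 of 40 genes above the 75th percentile, or 12 by the dimmest probe set of each gene. For the 12, no share of all named genes by the dimmest probe set is given here. The heparin-binding growth factor mdkb read 2884, 3134 and 2898. Of the SoxB1 factors of the neural plate, sox19a read 2795, 2870.2 and 2914, sox3 2828, 2931 and 2807 and sox2 1321, 1339 and 1438. The hairy-related repressor her9 read 2433, 2634 and 2694. The proneural factor neurog1 read 578, 667 and 698 and the neuronal RNA-binding protein elavl3 502, 347 and 598, at percentiles 79.8 and 73.7. Of the 4 probe sets of elavl3 the dimmest lay at percentile 31.7, and of the 3 of sox3 at 46.2. The adhesion molecule ncam1a was lowest at 18.8, 18.7 and 28.1.

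Lists of single brain regions had fewer members at high percentiles than the general neural list. In the forebrain and eye field list 6 of 26 lay above the 75th percentile and none above the 90th, and in the midbrain and hindbrain list 9 of 32 lay above the 75th. The head factor otx2b read 868, 933 and 839.96, the eye field gene rx3 779, 951 and 669.9 and the forebrain gene six3b 664, 696 and 701. In rx3 control 2 was highest. Further back, the hindbrain homeobox gene irx1b read 1400.5, 1643 and 1549, the Hox cofactor meis3 1568, 1513 and 1434, and the Fgf feedback inhibitor spry4 1388, 1078 and 1214. The rhombomere factor egr2b read 993, 1095 and 1027, gbx2 of the anterior hindbrain 417, 439 and 435 and pax2a of the midbrain boundary 368, 327 and 400.2. Placode genes, which mark the sensory thickenings beside the plate, had 4 of 19 above the 75th percentile. Among them dlx3b read 675, 781 and 808.

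Epidermal genes had the highest median of the embryonic tissue lists, at percentile 87.6, with 26 of 39 above the 75th and 14 above the 90th. Besides the keratins above, the periderm gene lye read 8454, 8042 and 6655 and the keratin krt5 6989.7, 6775 and 7215. Of the transcription factors of this tissue, tp63 of the basal layer read 736, 731 and 784 and gata3 1233, 1083 and 981. E-cadherin, cdh1, read 1387, 864 and 990.02, with control 1 highest. The keratin krt15 lay at the other end, at 18.9, 32.3 and 31.8. In the hatching gland list of 9 genes, xbp1, a regulator of secretory cells, was highest at 3189.7, 3521 and 3370.2. The hatching gland factor klf17 read 567, 649 and 634 and the cathepsin gene ctsl.1 70.6, 77.97 and 70.2.

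Genes of the yolk syncytial layer combined very high and very low signals, with 14 of 34 above the 90th percentile and 5 at or below the 25th. The apolipoproteins apoa1a, the main protein of high-density lipoprotein, and apoeb read 9346, 9363 and 10426 and 9457, 9359 and 8888. The cathepsin ctsla, which digests yolk protein, read 7255, 6765 and 6399.6. Near the middle of the list the retinol-binding protein gene rbp4l read 568, 700.3 and 736, and lrp1ab, a lipoprotein receptor, was lowest at 9.62, 7.07 and 14.2. The factor hnf4a, which controls many of these secreted proteins in liver, read 129, 154 and 130.04, at percentile 49.2.

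Blood, heart and endoderm lists had medians at percentiles 30.2, 47.1 and 49.2, against 59.6 over all named genes, and held some bright members. Blood and vessel genes had 12 of 27 at or below the 25th percentile, against 18.4% of named genes. The heart list had 7 of 21 there and the endoderm list 2 of 17. The leukocyte actin bundler lcp1 was highest at 1644, 2043 and 1375, with control 2 above the others. The blood and vessel factor tal1 read 203, 202 and 259.8 and the erythroid factor gata1a 109, 83.2 and 147, both highest on control 3. In the heart and lateral plate list gata5 read 1389.9, 1494 and 1399.6, hand2 1104, 1091 and 1249 and nkx2.7 584, 659 and 592, while the cardiac factor nkx2.5 read 10.8, 15.3 and 20.3 and the cardiac myosin light chain myl7 3.19, 4.52 and 7.41. These 2 lay at percentiles 11.2 and 2.42.

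Of 17 endoderm genes 4 lay above the 75th percentile: gata5, the chemokine cxcl12b at 1409, 1324 and 1256, its receptor gene cxcr4a at 597, 603 and 516 and the forkhead factor foxa2 at 511, 548 and 575. None of these is confined to endoderm. The endoderm specifiers sox17 and sox32 read 34.97, 42.8 and 34.3 and 20.6, 24.5 and 13.9, at percentiles 25.2 and 14.7. In the pronephros list of 14 genes, gata3 alone lay above the 75th percentile. The kidney and ear factor pax8 read 90.8, 102 and 80.2.

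The lists of germ cell and oocyte genes had medians at percentiles 32.1 and 32.3. Of 17 germ cell genes 2 lay above the 75th percentile, the tubulin gene tuba5 at 3228, 3359 and 3430.3 and the RNA-binding protein gene celf1 at 1314, 1331 and 1279, which other cells use as well. The dimmest probe set of celf1 lay at percentile 30.7. The germ plasm genes nanos3 and ddx4, the vasa helicase, read 184, 115 and 102 and 108, 108 and 96.9, near the middle of the ranking at percentiles 48.1 and 43.8. In nanos3 control 1 lay above the others. Among 31 egg and oocyte genes the mitotic cyclin ccnb1 read 2516, 2620.3 and 2561 and the claudin cldng 3274, 1656 and 2473. The RNA-binding protein ybx1 read 7745, 8528 and 8507. The meiotic kinase gene mos was lowest at 15.5, 13.5 and 13.6.

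Lists of organs that form later gave the lower end of the ranking. Pooled over 5 lists, 85 of 147 genes lay at or below the 25th percentile, where 18.4% of named genes lie, and 10 above the 75th. None of 24 photoreceptor and lens genes lay above the 75th percentile; the highest was the blue cone opsin gene opn1sw2 at 112, 116 and 108, and the green opsin gene opn1mw1 read 22.5, 27.8 and 19.4. In the list of later neurons, glia and pituitary 24 of 35 lay at or below the 25th percentile, the lowest being pomca, the precursor of pituitary hormones, at 7.70, 11.2 and 8.38. The intestinal actin-binding protein gene vil1 was lowest of the gut list, with deposited values of 0, 0 and 2.02. The bone matrix gene spp1 read 5.90, 4.84 and 5.49.

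The members of these lists above the median of all probe sets numbered 16. The lipid carriers fabp2 and fabp1b.1 read 5819, 6043 and 7057 and 3212, 4183 and 4267. The secreted protein gene fetub read 6087, 6182 and 6999, the urate oxidase gene uox 1896, 2493 and 2431, itih2 of plasma 787, 736 and 794 and the sulfotransferase gene sult2st1 619, 781 and 867. These 6 come from the liver, gut and pancreas list, the only members of that list above the median. In the muscle list the enolase eno3 read 465, 674 and 678, the troponins tnni2b.1 and tnnc2.2 471, 491 and 834 and 240.1, 188 and 453, the calcium store protein casq2 447, 464 and 386 and myoglobin, mb, 236, 124 and 194. Both troponins were highest on control 3. The neuron and glia list gave 3 genes: mbpb, of the myelin basic protein family, read 953, 1008 and 970.2, gfap of glial filaments 331, 371 and 583 and the stathmin stmn4 140.1, 159 and 198. From the blood and skeleton list the acid phosphatase acp5a read 1828, 2211 and 2370.1 and the embryonic globin hbae3 180.2, 230.3 and 268.

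The floor of the arrays was gradual. Only 1 probe set was listed at 0 on all 3 control arrays, and 41 on at least 1. Intensities stayed under 16 on all 3 arrays in 1480 probe sets (9.55%). They made up 5.89% of named genes by their brightest probe set, 28 of the 147 genes of later organs, and 16.6% of the 4707 probe sets without a single gene symbol. The 17 control probe sets for synthetic tag sequences read between 3.91 and 61.3, at percentiles 2.47 to 32.1. The probe set for the green fluorescent protein d2EGFP read 38.8, 40.07 and 33.9, at percentile 25.4 and so within the range of the tags; whether it binds the transcript of the sox10(7.2):gfp transgene was not tested. The probe sets for the coral-derived red fluorescent proteins AsRed2 and DsRed1 read 63.96, 77.5 and 58.03, and 66.1, 80.6 and 82.2, at percentiles 35.5 and 37.98. The deposited table has no detection calls, so a signal in that range, such as that of mitfa, sox32 or nkx2.5, could not be told from background binding.

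The 3 control arrays lay close together. After quantile normalization over these arrays, the SD of log2(intensity + 16) over the 3 arrays had a median of 0.13, and in 88.9% of probe sets the highest and lowest arrays were less than 0.5 apart. Ribosomal proteins had a median SD of 0.036 and first muscle genes, the most variable tissue list, one of 0.27. A range over 1, which is over a 2-fold difference in intensity + 16 between 2 control arrays, was found in 222 probe sets (1.43%), 27 of them above the 75th percentile of level. With the probe sets cut by level into 10 bins of equal size, bin 1 being the dimmest, the median SD was smallest in bin 10, at 0.080, and largest in bin 4, at 0.15. The smallest ranges above the median level belonged to eef1a1l1, pias2, afp4, hsf1, rplp2b and aldh6a1. The range of eef1a1l1 is 0 by construction, because it is the brightest probe set on every array. The SUMO ligase pias2 read 1107, 1114 and 1148 as deposited.

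**Figure D3:**
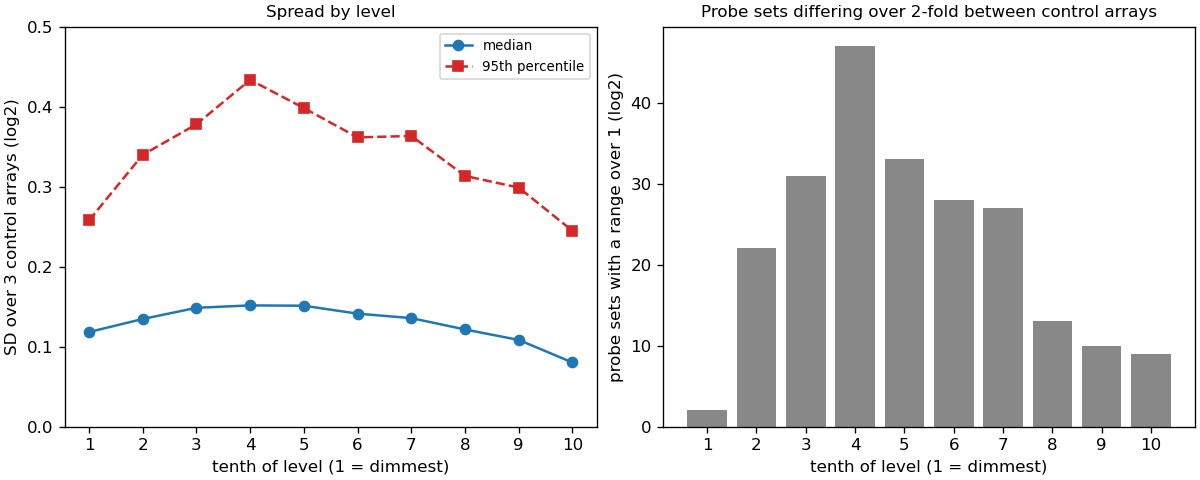
Left, SD of quantile-normalized log2(intensity + 16) over the 3 control arrays by level bin (10 bins of equal size, 1 the dimmest), as the median (circles) and 95th percentile (squares); right, number of probe sets in each bin whose highest and lowest control arrays differ by more than 1 on the log2 scale. The median SD is highest in bin 4, at 0.15, and lowest in bin 10, at 0.080. The counts are 2 in bin 1, 47 in bin 4 and 9 in bin 10.

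The probe sets with a range over 1 shared a direction. Control 1 was highest in 189 of the 222 and control 2 lowest in 187; both held in 178, an order found in 18.99% of all probe sets. The same-numbered morphant arrays, normalized among themselves and not used in the choice, were ordered alike: the array number that was highest among controls was highest among morphants in 206 of the 222 (92.8%), against 51.1% of all probe sets. The labels do not say what a replicate number stands for. Of the 222, 153 (68.9%) have no single gene symbol, against 30.4% of all probe sets. The count was 42 without control 1, 81 without control 2 and 180 without control 3. A range over the 2 remaining arrays leaves 1 value out, so part of each fall is built in.

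Among named genes above the median level, the largest range was that of pnisr, an RS-domain protein of nuclear speckles, which read 789, 158 and 433 as deposited, control 1 being highest and control 2 lowest. On the normalized log2 scale it stood at 9.66, 7.54 and 8.75 in controls 1, 2 and 3, and at 9.58, 8.59 and 8.86 in morphants 1, 2 and 3. The spermatid RNA-binding protein strbp read 351, 64.4 and 152, and the lysosomal amidase aga 3703, 1194 and 2302. The corepressor irf2bp2b read 1941, 616 and 1061, the tropomyosin tpm4b 530.3, 152 and 291 and the membrane protein tmem244 1017, 364 and 651. In all 6 control 1 was highest and control 2 lowest, and the same holds for morphants 1 and 2. Only 1 of them, pnisr, has a single probe set; in tmem244 the dimmest lay at percentile 23.99.

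Other genes followed another order. The peroxisomal oxidase hao1 read 117, 214 and 381, the deaminase rida 167, 248 and 469.6 and si:ch1073-340i21.3 463, 774 and 1296, all lowest on control 1 and highest on control 3, and all ordered alike among morphants. The calcium-binding protein s100a1 read 528, 310.03 and 182 and the iron-binding protein meltf 282, 326 and 128, both lowest on control 3 and on morphant 3. The splicing-related gene rsrp1 read 895, 224 and 283 as deposited, highest on control 1. In morphants 1, 2 and 3 it stood at 9.66, 11.51 and 11.15 on the normalized log2 scale, where array 1 was lowest. The scales are unlike, so only the order of the arrays can be compared here.

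**Figure D4:**
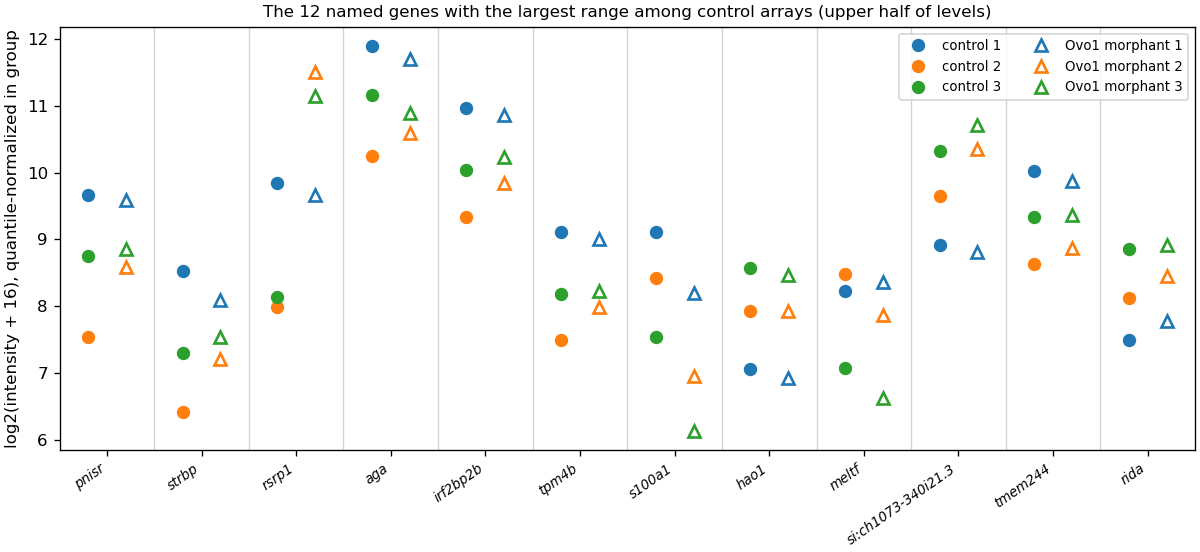
Quantile-normalized log2(intensity + 16) of the 12 named genes with the largest range among control arrays, for genes above the median level; filled circles are control arrays 1 to 3 and open triangles the same-numbered Ovo1 morphant arrays, normalized within their own group. In pnisr, strbp, aga, irf2bp2b, tpm4b and tmem244 array 1 is highest and array 2 lowest in both groups, while rsrp1 changes its order.

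Whole lists also leaned towards single arrays, in a comparison chosen after the values were seen. Among all named genes control 1 was the highest array in 25.4%, control 2 in 45.6% and control 3 in 29%. With the values as deposited these shares were 25.1%, 28.6% and 46.3%, and with median centring 21.5%, 63.6% and 15%, so that the scaling moves all genes towards control 3 or control 2. Among morphants, arrays 1, 2 and 3 were highest in 33.8%, 30.6% and 35.6% of named genes. Each count below is to be read against the share for the same array and scaling. First muscle genes were highest on control 3 in 13 of 19, with a median deviation from the mean of the 3 control arrays of 0.23 on that array, -0.07 on control 1 and -0.17 on control 2. Among morphants 16 of the 19 were highest on array 3, with a median deviation of 0.45. The count on control 3 was 13 with the values as deposited and 11 with median centring. In actc1b the normalized values were 10.52, 10.55 and 11.30 in controls 1, 2 and 3, and 10.57, 11.28 and 12.23 in morphants 1, 2 and 3.

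Yolk syncytial genes were highest on control 3 in 20 of 34 (24 as deposited, 15 with median centring), with a median deviation of 0.12 on that array and -0.15 on control 1, and 19 of the 34 were highest on morphant 3. Proteasome genes were highest on control 2 in 42 of 47 (38 as deposited, 45 with median centring), although by small amounts, with a median deviation of 0.10, and in 27 of 47 on morphant 2. Genes of mitochondrial respiration were highest on control 2 in 58 of 90 (46 as deposited, 85 with median centring). On control 1 they were highest in 3, and on morphant 2 in 27 of 90. Among morphants the most, 53 of the 90, were highest on array 3, against 35.6% of named genes. The median deviation of the respiration genes was -0.137 on control 1 and -0.140 on morphant 1, against -0.036 and -0.028 over all named genes. Epidermal genes were highest on control 1 in 21 of 39, in 18 as deposited and in 13 with median centring, while 11 of the 39 were highest on morphant 1. Endoderm genes were highest on control 2 in 11 of 17 (9 as deposited, 12 with median centring), but in only 1 of 17 on morphant 2. The count of the cytoskeleton list on control 3 was 20 of 30, and 5 with median centring, where 15% of named genes are highest on that array. The array's own GAPDH control probe sets, which can show RNA quality, read 71.4, 109.6 and 172 at the 3' end and 135, 160.5 and 153 at the 5' end in controls 1, 2 and 3. The lowest of these values lies among those of the fluorescent protein probe sets, so the ratio is not given for controls. The control values at both ends lie far below the gapdh readings given above. Which transcript the GAPDH control probe sets bind was not tested. In morphants 1, 2 and 3 the same probe sets read 210, 759 and 1122 at the 3' end. At the 5' end they read 208, 290 and 439, with ratios of 3' to 5' of 1.01, 2.62 and 2.55. In both groups the 3' value rose from array 1 to array 3, and among morphants the 5' value rose as well. The part of RNA quality in these differences was not tested.

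**Figure D5:**
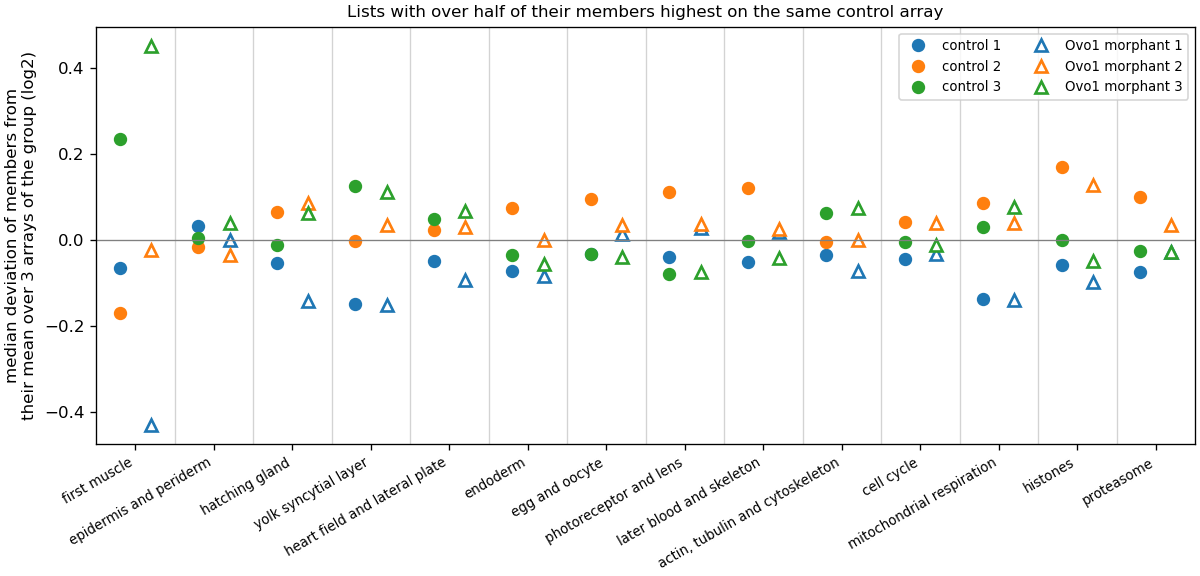
Median over list members of the deviation (log2) from each gene's mean over the 3 arrays of its group, for the 14 lists with over 50% of their members highest on 1 control array; filled circles are control arrays and open triangles the same-numbered Ovo1 morphant arrays. First muscle genes lie at 0.23 on control 3 and 0.45 on morphant 3, and the other lists drawn stay within 0.2 of 0. The rest of the 35 measured lists did not pass the 50% limit. Among all named genes controls 1, 2 and 3 were highest in 25.4%, 45.6% and 29%. A list therefore passes the limit more easily on control 2 than on the others.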

How the data were processed

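RNA of whole embryos kept at 28.5 °C was hybridised to Affymetrix zebrafish arrays, with 1 array for each sample, per the labels' protocols. The authors deposited linear intensities, summarised by probe set with the PLIER method. The software was Expression Console 1.1 of Affymetrix, per the submitters' processing notes; settings for background and normalization were not given in the sources used here. Of 15617 probe sets, 115 Affymetrix controls were set aside and 15502 ranked. The platform annotation gave 10795 probe sets 1 symbol, 135 several and 4572 none, and 8793 genes were named, each by the probe set with the highest mean. Levels are means of log2(intensity + 16) of deposited values, and spread was measured after quantile normalization within a group of 3 arrays. Of 36 gene lists 35 had measured members. The list of mitochondrially encoded genes had 0, because the annotation writes COX1 in capitals. Members were looked up by symbol or synonym, and a gene can stand in several lists. The members and lists were chosen with earlier results of these data known.

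Genes were named by a rule: the 25 highest, the 15 highest outside lists of cell machinery, the 4 highest, the median and the lowest member of each list, a fixed set of 44 tissue genes of which 40 are measured, members of the later organ lists above the median, and the 12 largest and 6 smallest ranges. Of the fixed set he1.1, ctslb, apoa1b and hbbe1.1 were not analysed here. No groups were compared and no test was made, since with 3 arrays of 1 kind the values are a description. The planned sequence features were not analysed here. The calculation of spread was tested on simulated data. Alternatives were pseudocounts of 1 and 64, quantile normalization of levels, median centring, other limits and probe set choices, and leaving out each array. Python 3.11.15, pandas 2.3.3 and matplotlib 3.10.9 were used.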

Additional observations from a re-analysis of the deposited data

How the results depend on the processing

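No paired analysis was possible because no result here comes from a test between groups. With the dimmest probe set of each gene in place of the brightest, 11 neural crest genes (17 with the brightest) and 12 genes of the neural list (19) lay above the 75th percentile; the somite, notochord, epidermis, yolk and ribosomal lists moved by less than 1.5 times. The share of all named genes by their dimmest probe set is not given here, so these counts have no matching share. Under the other alternatives for levels, the counts of these 7 lists, that of later organ genes at or below the 25th percentile and the 25 highest genes stayed within 1.5 times. The number of probe sets under the floor was 513 at a limit of 8 and 3066 at a limit of 32, against 1480 at 16. The number with a range over 1 was 811 with a pseudocount of 1 and 84 with one of 64, against 222 with 16, and lay between 42 and 180 when 1 control array was left out, at 42 without replicate 1, at 81 if replicate 2 was dropped and at 180 if replicate 3 was. Signal over background limits values at least up to percentile 37.98, since control probe sets for synthetic tags and fluorescent proteins reach that place.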

Other observations

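In a comparison added after the values were seen, 663 pairs of measured genes had symbols that differ only in a final a or b. Many zebrafish genes with such names are copies from an ancient genome duplication, but the pairs also hold different subunits of 1 enzyme, such as sdha and sdhb, so the counts below are of symbols and not of duplicates. Their percentiles lay a median of 15.9 points apart. Single genes gave 14.8 points between their brightest and dimmest probe sets. The measures are unlike, since a pair is compared by the brightest probe set of each member. In 156 pairs both members lay above the 75th percentile, and in 35 pairs 1 member lay above the 75th and the other at or below the 25th. Of all named genes, 33% lie above the 75th percentile and 18.4% at or below the 25th. Of the 1539 genes with several probe sets, 50 were split in the same way between their brightest and dimmest probe sets. Examples from the 35, chosen after their values were seen, are the respiratory chain subunit ndufa4a at percentile 98.2 with ndufa4b at 2.87, the apolipoprotein apoeb at 99.3 with apoea at 18.3, the crest factor sox9b at 92.2 with sox9a at 23.9, the glycolytic enzyme tpi1b at 90.6 with tpi1a at 17.6, and the ligand fgf8a at 79.8 with fgf8b at 16.1. Each member of a pair has its own probe set, so such gaps mix transcript level with probe set strength.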
